A study of Mus musculus with 24 samples.

Results

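The subject here is a comparison of 16 of the 24 tumours of a mouse study: the 8 that ranked highest and the 8 that ranked lowest by a proliferation score. The score is the mean log2 expression value of 5 genes of dividing cells, each read from its brightest probe set: Mki67 (the Ki-67 antigen), Top2a (topoisomerase II alpha), Bub1b (a kinase of the spindle checkpoint), Aurka (Aurora kinase A) and Birc5 (survivin). The tumours were therefore selected on measured values of the same arrays. The 5 score genes were left out of the comparison, which asks of each of 13213 other genes whether its transcript went with the score.

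Every tumour was excised from the cortex of a mouse and grew from cells that expressed 1 of 3 genes, called class genes: RAB3A (6 tumours), BC74C (9) or ZNF668 (9). RAB3A is a small GTPase of synaptic vesicles, ZNF668 a zinc finger protein, and BC74C is not an approved gene symbol. The labels give no age, strain, vector or promoter, do not name the cells that were transduced, and do not say that the tumours came from separate animals, so the p-values below measure only the spread between these samples. There were no non-tumour samples. A second label calls 11 tumours ependymoma and 4 HGG (not spelled out there), while 5 are labelled TUMOR with no type and 4 UNKNOWN. Of the titles 18 start with elw and 6 with mmr. Replicate numbers follow the order of deposit within a class gene.

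As background, a cell that divides passes through licensing of replication origins, DNA synthesis, and mitosis, and the transcripts of each step are made in turn: those of DNA replication are switched on by E2F factors at the start of S phase, and those of mitosis by MYB and FOXM1 complexes in G2. Differentiated neurons and myelinating oligodendrocytes have left the cycle. A tumour excised from cortex is a bulk sample that can hold tumour cells, neurons, glia, vessels and leukocytes, and fewer cells of a type cannot be told apart from less RNA of that type per cell.

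The highest score was that of ZNF668 replicate 8 (9.56) and the lowest that of RAB3A replicate 1 (4.30). It averaged 8.97 ± 0.52 (SD, n = 8) in the high-score tumours, 7.26 ± 0.71 (SD, n = 8) in the 8 tumours between and 5.26 ± 0.69 (SD, n = 8) in the low-score tumours. These values chose the groups and are given as a description only. At the upper threshold ZNF668 replicate 6, with 8.17, was the last tumour inside and BC74C replicate 2, with 8.03, the first outside. At the lower threshold the step was smaller still, from 6.202 in BC74C replicate 8 (inside) to 6.208 in ZNF668 replicate 3 (outside). The plot of the score by tumour shows a steady fall, with its widest gap among the 8 tumours between and none at either threshold.

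**Figure D1:**
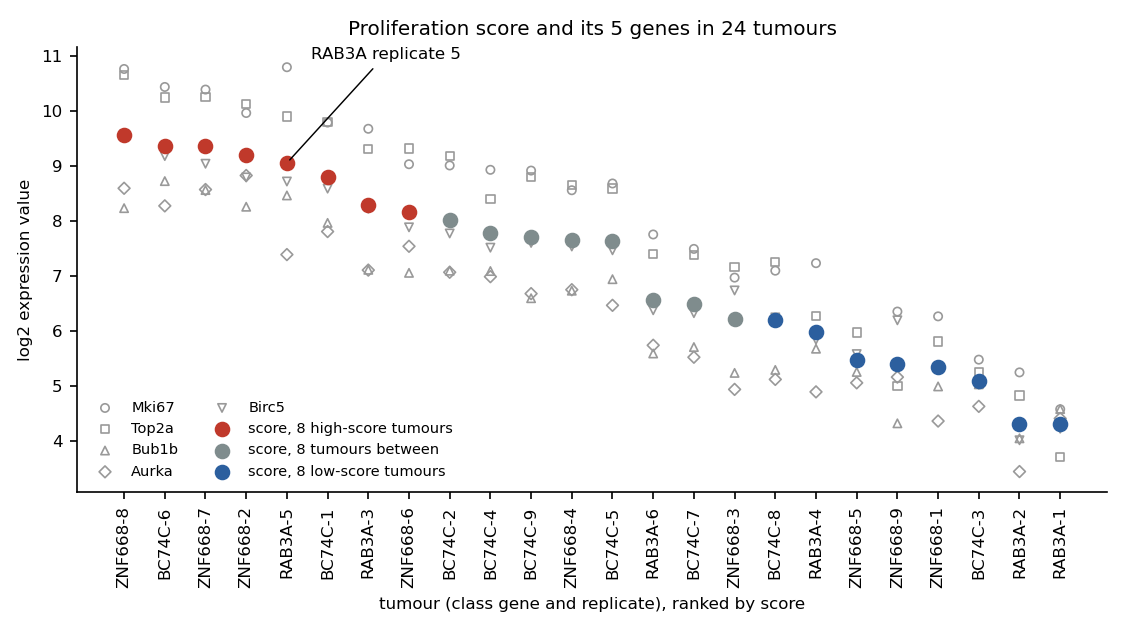
Log2 expression value (y axis) of the 5 score genes (open symbols) and of their mean, the proliferation score (filled circles), in each of 24 tumours ranked along the x axis from the highest to the lowest score. The 8 high-score tumours lie between 8.17 and 9.56 and the 8 low-score tumours between 4.30 and 6.202.

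Labels did not divide the groups. The high-score group held 2 RAB3A, 2 BC74C and 4 ZNF668 tumours, and the low-score group 3, 2 and 3. By the second label the high-score group held 3 ependymoma, 2 HGG, 2 TUMOR and 1 UNKNOWN, and the low-score group 3, 0, 2 and 3. Over all 24 tumours the score averaged 8.24 ± 1.42 (SD, n = 4) in HGG and 7.17 ± 1.61 (SD, n = 11) in ependymoma, 1.07 apart (exact permutation test, two-sided, p = 0.263). Between mmr and elw titles it differed by 1.04 (exact p = 0.19), and between RAB3A and BC74C tumours by -1.04 (exact p = 0.239). All 5 label comparisons made had an adjusted exact p of 0.425 or more after Benjamini-Hochberg adjustment. The differences lay within the spread inside each label.

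One high-score tumour stands apart and touches most results below. RAB3A replicate 5, labelled UNKNOWN and titled mmr, had a score of 9.05. Its median correlation with the other arrays, 0.935, was the lowest of all, next to 0.937 for the low-score tumour ZNF668 replicate 9; the other 22 tumours had 0.943 or more. A list of 15 genes of B lymphocytes, drawn up after its values had been seen, had 14 measured members, of which 13 were higher in RAB3A replicate 5 than in any other tumour. Ms4a1, which encodes the B cell surface antigen CD20, read 12.13 there against 2.94 to 4.32 in the other 23 tumours. Cd79b, a chain of the B cell receptor complex, read 11.54 against at most 4.41, and Pou2af1, a B cell transcriptional coactivator, 11.03 against at most 3.65. Ptprc, the pan-leukocyte antigen CD45, read 11.85 against 6.92 to 9.82. Ighm, the mu heavy chain, was the 1 measured member of the list that was not raised (3.32).

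Other genes were low in the same tumour. Olig2, a transcription factor of the oligodendrocyte lineage and of gliomas, read 7.22 against 8.39 to 12.10 in the other 23, and Ccnd1, which encodes cyclin D1, read 8.55 against 9.56 to 12.48. Mycn, a MYC family oncogene, read 9.41 on its brightest probe set, whereas the other 23 tumours lay in a narrow band from 13.15 to 13.85. The highest value of any probe set in any tumour was also 13.85, so the band lies at the top of the scale. The other 2 probe sets of Mycn read 4.12 to 8.30 and 3.31 to 4.13 over the 24 tumours. The Y-linked transcripts Uty and Kdm5d read 3.04 and 2.89, below every other tumour. Xist, the other kind of sex-linked transcript measured, read 11.99, within the 8.67 to 12.21 of the other 23. The labels name no cell type, and what part these transcripts have in the results was not tested. Counts of called genes, over all genes and in each list, are therefore also given without RAB3A replicate 5 wherever they differ, which leaves 7 high-score and 8 low-score tumours. The tumour was set apart after its values had been seen. For genes in which it was the extreme high-score tumour, p-values without it are therefore descriptions.

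**Figure D2:**
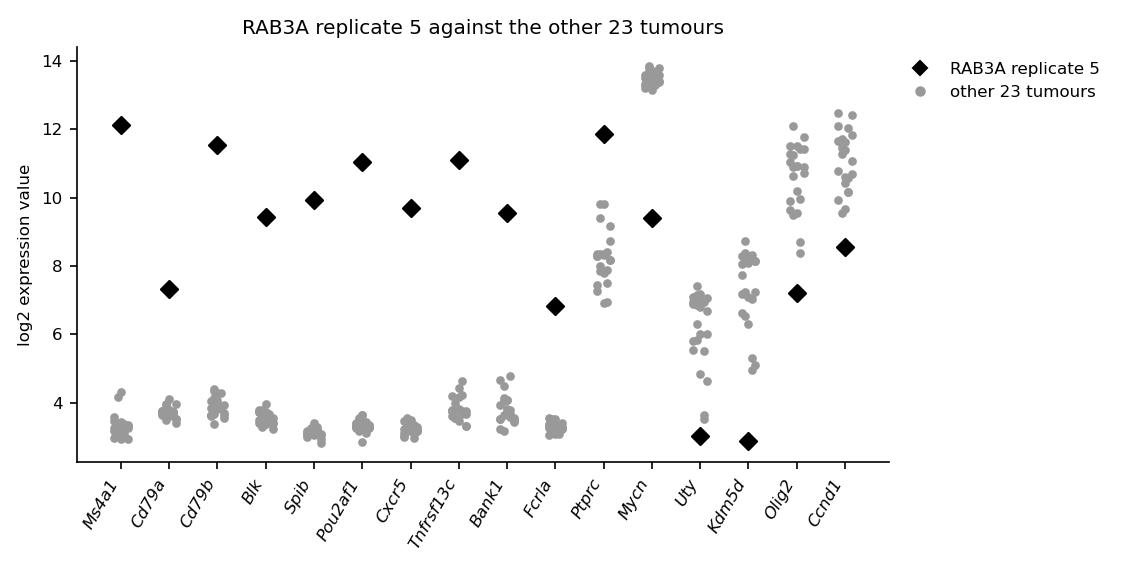
Log2 expression value (y axis) of 16 genes (x axis) in RAB3A replicate 5 (black diamond) and in each of the other 23 tumours (grey points). The first 10 genes belong to the B lymphocyte list and all lie above the range of the other tumours, while Mycn, Uty, Kdm5d, Olig2 and Ccnd1 lie below it; the genes were chosen after their values had been seen.

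Genes were compared with limma, the class gene entering as a covariate, and are called below where the Benjamini-Hochberg adjusted p was under 0.05. In the 8 high-score tumours 2242 of 13213 genes were higher (17.0%) and 2197 were lower (16.6%), against a median log2 difference of 0.05 over all genes tested. Without RAB3A replicate 5 the counts were 2816 higher (21.3%) and 2390 lower (18.1%), and 2106 of the 2242 and 2099 of the 2197 were called in both fits. These shares are the background for the count of each list below. Complete separation of the groups was more often upward: 475 genes (3.59%) were higher in all 8 high-score than in all 8 low-score tumours, and 115 (0.87%) were lower in all 8. That imbalance came with RAB3A replicate 5, since without it 805 genes (6.09%) were separated upward and 732 (5.54%) downward. Large differences leaned the other way: 123 called genes were at least 4-fold higher and 304 at least 4-fold lower, and 132 and 459 without RAB3A replicate 5.

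Of the genes called higher 97.4% had a positive difference within RAB3A, BC74C and ZNF668 tumours alike, against 31.1% of all genes tested, and of those called lower 95.5% had a negative difference in all 3, against 27% of all. A call on the pooled difference largely fixes these signs, so the shares are a description. A limma test of the interaction between class gene and group, added after the data were seen, called 0 genes (smallest adjusted p = 0.244), while 676 had an unadjusted p under 0.05. In the 8 tumours between, which enter neither group, 76.1% of the genes called higher rose with the score, against 53.3% of all genes tested, and 77.2% of the genes called lower fell with it, against 46.7% of all. These shares are descriptions, because genes share tumours.

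Genes of the cell cycle moved almost as a block. In the 7 cell cycle lists 134 of 151 genes tested were higher, 0 were lower, and 108 were higher in all 8 high-score tumours than in any low-score tumour. Without RAB3A replicate 5 the count was 136, with 112 separated. The lists lie close to the genes that define the score, so these counts describe how far the score extends and support nothing beyond it.

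Among the proteins that license and fire replication origins, all 19 genes tested were higher (median log2 difference 1.79). Mcm5, a subunit of the MCM helicase, ran from 6.62 to 8.84 (median 7.88) in the high-score tumours and from 4.10 to 5.51 (median 4.62) in the low-score tumours, a log2 difference of 3.18 ± 0.32 (SE; adjusted p = 1.03e-05). The groups did not overlap, and the highest values were those of ZNF668 replicate 8 and RAB3A replicate 5. Cdc6, which loads the helicase, had a log2 difference of 2.96 (adjusted p = 7.87e-06), and Mcm2 one of 2.95 (adjusted p = 1.18e-05). Gins4, a subunit of the GINS complex, had the smallest difference of the list, 0.42 (adjusted p = 0.0122). All 20 genes of DNA and nucleotide synthesis were also higher (median 1.62), led by thymidine kinase, Tk1 (3.31), and by Rrm2, a subunit of ribonucleotide reductase (3.27); Rfc2, a subunit of the clamp loader, had the smallest difference (0.62).

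The mitotic lists had the largest medians of the 29. Of 25 kinases and checkpoint genes 24 were higher (median 2.82). Bub1, a kinase of the spindle checkpoint, ran from 7.54 to 9.05 (median 8.36) in the high-score and from 3.23 to 5.08 (median 4.11) in the low-score tumours, a difference of 4.13 ± 0.28 (SE; adjusted p = 1.03e-06). No tumour of one group came within the range of the other. Ube2c, the ubiquitin-conjugating enzyme of the anaphase-promoting complex, had a difference of 3.85 and Cdk1, the kinase that drives entry into mitosis, one of 3.71. Wee1, the kinase that restrains Cdk1, was the 1 member not called (0.46, adjusted p = 0.0892).

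Of 29 kinetochore and spindle genes 27 were higher (median 2.62). Nusap1, which bundles spindle microtubules, differed by 3.55, the kinesin Kif20a by 3.55, and the motility receptor Hmmr, which binds spindle microtubules, by 3.48. Neither of the remaining genes was called: Anln, the cytokinesis scaffold anillin, had a difference of -0.30 (adjusted p = 0.537), and Kif15 one of -0.04 (adjusted p = 0.78) on a dim probe set that read 3.60 to 4.10 in all 16 tumours. Anln read up to 11.00 in a low-score tumour.

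Regulators of G1 were mixed, with 11 of 22 higher (median 1.05) and 0 lower, and 13 higher without RAB3A replicate 5. The called genes included the repressive E2F factors E2f7 (2.87) and E2f8 (2.69) and the pocket protein Rbl1, p107 (2.35). Cdkn1c, the CDK inhibitor p57, was among those not called (-0.48, adjusted p = 0.42). In DNA repair and checkpoint signalling 16 of 18 were higher (median 1.48), among them the nuclease Exo1 (2.66), Brca1 (2.59) and the checkpoint kinase Chek1 (2.52), while Fancd2 (0.57, adjusted p = 0.203) and Trp53bp1 (-0.10, adjusted p = 0.665) were not called. Among chromatin proteins of dividing cells 17 of 18 were higher (median 2.04), led by the condensin subunit Ncapg (3.86), by Uhrf1, which guides maintenance methylation of DNA (3.09), and by the remodeller Hells (2.82).

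Outside the cell cycle lists, the 12 genes with the largest positive differences were led by Cep55 and Pclaf. Cep55, needed for abscission, the last step of cell division, ran from 7.70 to 9.15 (median 8.78) in the high-score and from 3.77 to 6.35 (median 4.77) in the low-score tumours, a difference of 3.65 (adjusted p = 2.27e-06). The groups were fully apart. Pclaf, a PCNA-binding protein, differed by 3.57, the spindle pole protein Aspm by 3.48, sororin, Cdca5, by 3.43, the cohesin acetyltransferase Esco2 by 3.35 and the CDK subunit Cks2 by 3.30. The other 6 were Fignl1 (3.20), Lrr1 (3.19), Depdc1a (3.16), Cdca3 (3.04), B3gnt5 (3.02) and the kinesin Kif20b (3.00). B3gnt5 is an enzyme of lacto-series glycolipid synthesis. Each of the 12 had separate groups. Several of them act in cell division and lie as close to the score as the lists do, so their values are a description only. The 6 genes in no list with the smallest p were Kif20b, the helicase Ddx11 (1.98, adjusted p = 1.03e-06), Shcbp1 (2.55), Lrr1, the nuclear import receptor Kpna2 (1.76) and the centriole protein Stil (1.88).

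The promoters of the leading genes are shown because the mitotic and the replication genes rose together. The windows are the 200 bases before the start site of the 3 genes with the largest differences in the mitotic kinase list and in the licensing list, from RefSeq (GRCm38.p6), written 5′ to 3′ along the gene. Capitals mark, on either strand, TTTGAA (the cell cycle homology region, CHR, bound by MuvB complexes), CCAAT (the NF-Y box), and TTTCCCGC or TTTGGCGC (E2F sites); neighbouring boxes can overlap, as CCAAT and its reverse do in Ube2c.
Bub1 (chr2:127831860-127832059, minus strand): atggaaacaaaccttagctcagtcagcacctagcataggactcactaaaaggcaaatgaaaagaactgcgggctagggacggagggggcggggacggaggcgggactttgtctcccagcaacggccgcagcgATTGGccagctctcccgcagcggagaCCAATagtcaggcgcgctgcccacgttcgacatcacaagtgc
Ube2c (chr2:164769729-164769928, plus strand): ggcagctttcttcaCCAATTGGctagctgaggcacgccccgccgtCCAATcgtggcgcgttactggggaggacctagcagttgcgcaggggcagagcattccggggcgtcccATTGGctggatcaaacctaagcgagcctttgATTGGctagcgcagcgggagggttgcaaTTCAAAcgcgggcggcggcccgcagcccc
Cdk1 (chr10:69352913-69353112, minus strand): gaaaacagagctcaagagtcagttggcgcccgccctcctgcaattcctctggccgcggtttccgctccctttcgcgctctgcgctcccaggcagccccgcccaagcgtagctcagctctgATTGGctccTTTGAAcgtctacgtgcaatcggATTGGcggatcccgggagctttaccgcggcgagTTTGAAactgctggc
Mcm5 (chr8:75109309-75109508, plus strand): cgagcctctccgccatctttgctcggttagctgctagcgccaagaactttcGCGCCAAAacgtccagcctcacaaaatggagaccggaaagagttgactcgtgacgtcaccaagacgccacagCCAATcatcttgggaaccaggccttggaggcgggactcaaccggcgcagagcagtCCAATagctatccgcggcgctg
Cdc6 (chr11:98907951-98908150, plus strand): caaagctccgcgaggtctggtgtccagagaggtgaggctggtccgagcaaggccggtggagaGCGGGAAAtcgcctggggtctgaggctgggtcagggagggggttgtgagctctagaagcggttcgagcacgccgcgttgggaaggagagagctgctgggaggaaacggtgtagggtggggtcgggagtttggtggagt
Mcm2 (chr6:88898781-88898980, minus strand): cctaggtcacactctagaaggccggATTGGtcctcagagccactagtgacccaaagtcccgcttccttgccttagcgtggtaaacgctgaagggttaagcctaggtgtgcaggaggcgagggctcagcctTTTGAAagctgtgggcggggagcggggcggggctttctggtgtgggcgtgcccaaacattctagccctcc

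Cdk1 held TTTGAA 15 and 71 bases before the start site and a reversed CCAAT at 48 and 80, and Ube2c held TTTGAA reversed at 29 with CCAAT boxes at 57, 88, 155, 183 and 186. Bub1 had CCAAT boxes at 42 and 68 and no TTTGAA in its window. Mcm5 and Cdc6 each held 1 E2F site, 149 and 138 bases before the start, Mcm5 also had CCAAT boxes at 22 and 77, and Mcm2 a TTTGAA at 70 with a CCAAT box at 175. Over the 300-base promoters of the table, TTTGAA and CCAAT stood together in 57.9% of the promoters of the mitotic kinase list (19 promoters) and in 14 of 28 promoters of the kinetochore list, against 18.8% in the licensing list (16 promoters), 45.0% in the chromatin list (20 promoters) and 0 of 20 in the DNA synthesis list. An E2F site stood in 43.8% of licensing, 20.0% of DNA synthesis and 10.7% of kinetochore promoters, in 6 of 20 chromatin promoters and in 0 of the 19 mitotic kinase promoters. The pair stood in 13.6% of the promoters of the G1 list and in 0 of 15 promoters of the DNA repair list, and an E2F site in 18.2% and 20.0%. CCAAT stood in 68.8% of licensing and 73.7% of mitotic kinase promoters, and TTTGAA in 37.5% of licensing promoters. CCAAT is a common motif: it stood in 37.4% of all promoters, and TTTGAA in 17.9%. The shares in all 32851 promoters were 6.95% for the pair and 1.56% for E2F, and in the promoters of all genes tested 4.59% and 2.6%. Among genes at least 4-fold higher the pair stood in 39.0%, among all genes called higher in 7.22% and among genes called lower in 3.39%. A match describes letters and is not evidence that a factor binds.

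Growth-related transcripts rose less. In ribosome biogenesis and MYC 14 of 18 genes were higher (median 0.64) and 0 lower, and 15 were higher without RAB3A replicate 5. Myc itself ran from 8.83 to 9.55 (median 9.30) in the high-score and from 6.36 to 8.56 (median 7.57) in the low-score tumours, a difference of 1.63 ± 0.27 (SE; adjusted p = 0.000648). The groups were separate, although several of the tumours between reached the values of the high-score group, as the plot of genes against the score shows. Fbl, the nucleolar protein fibrillarin, differed by 1.13. Mycn was not called (-0.53, adjusted p = 0.44). Without RAB3A replicate 5 its difference was 0.15 (adjusted p = 0.315). With that tumour included, the 3 probe sets of Mycn disagree in sign. The probe set that read 4.12 to 8.30 differed by 1.22, and the one that read 3.31 to 4.13 by 0.08. The brightest probe set lies at the top of the scale, so it cannot show whether Mycn goes with the score. Whether the other probe sets go with it was not tested.

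Differences in energy metabolism were small in oxidative phosphorylation. Among its subunits 0 of 19 were higher and 8 lower (median -0.21), a count that ran from 4 to 11 with 1 tumour left out: 5 without RAB3A replicate 5, ZNF668 replicate 5, 7, 8 or 9, or BC74C replicate 6, and 4 without BC74C replicate 1 or 3. Ndufv1, a subunit of complex I, fell by 0.36 (adjusted p = 0.0135) and Sdha, of complex II, by 0.31 (adjusted p = 0.0276), though Sdha was not called in 5 of the 16 fits without 1 tumour (highest adjusted p = 0.067). In hypoxia and glycolysis 5 of 18 were higher and 3 lower (median 0.08), where 17.0% and 16.6% of all genes were called, and 6 and 4 without RAB3A replicate 5. The oxygen sensor Egln3 (2.03) and the hexokinase Hk2 (1.74) were higher; the neuronal enolase Eno2 (-2.16) and the glucose transporter Slc2a1 (-0.69, adjusted p = 0.0403) were lower, but Slc2a1 was not called in 11 of the 16 fits without 1 tumour (highest adjusted p = 0.0973). The count of lower genes there was 1 without any one of ZNF668 replicates 5, 8 or 9, BC74C replicates 1 or 3, or RAB3A replicates 1 or 3, and 5 without ZNF668 replicate 1.

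**Figure D3:**
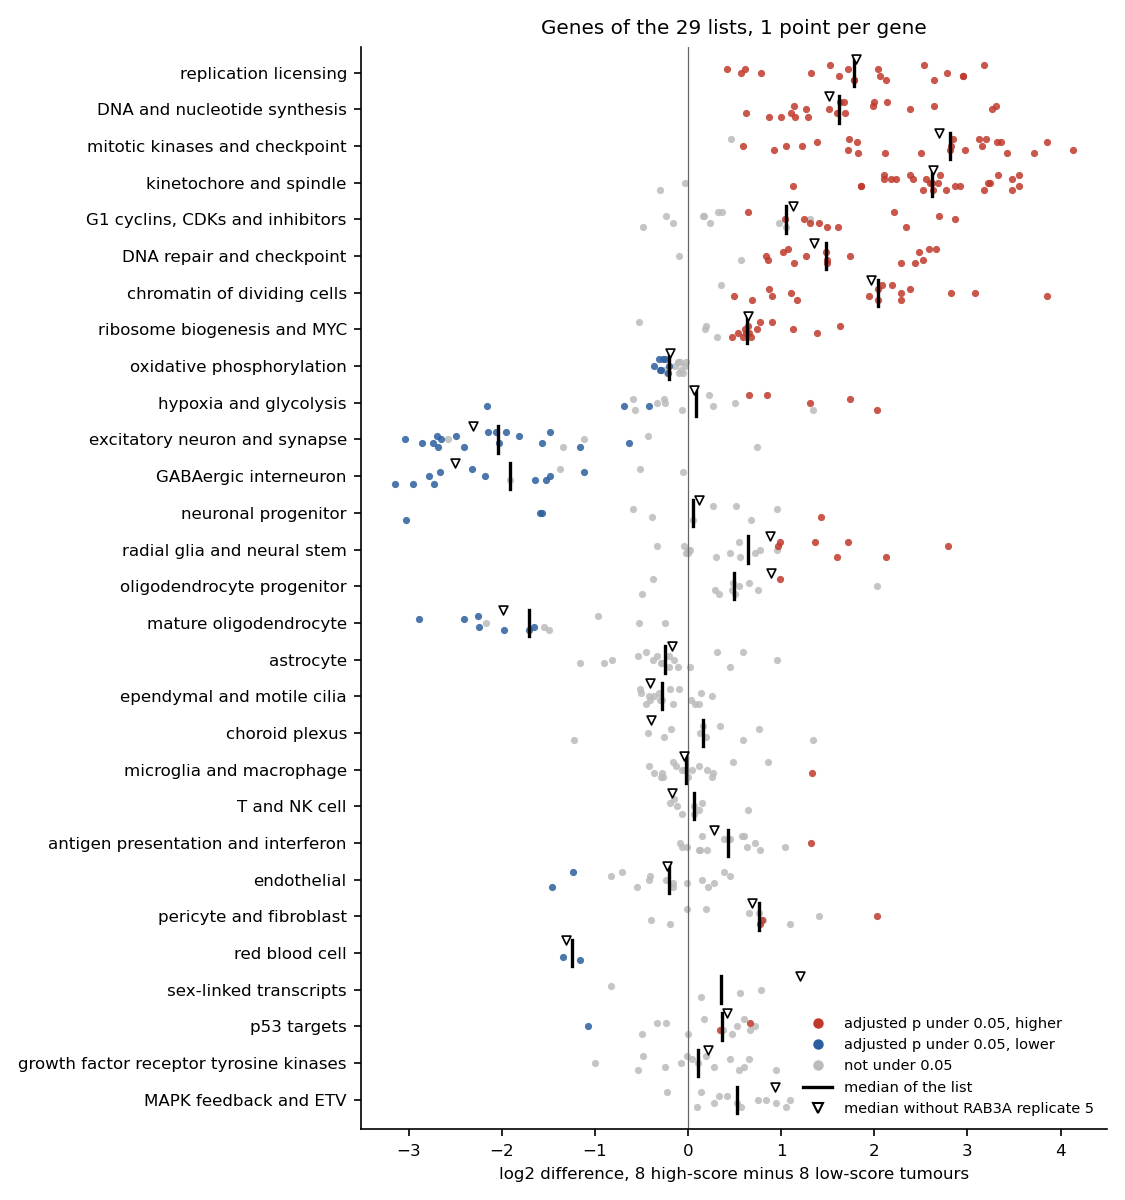
Log2 difference between the 8 high-score and the 8 low-score tumours (x axis) for each gene tested in 29 lists (y axis), coloured by whether limma's adjusted p was under 0.05. Black bars are the medians of the lists and open triangles the medians without RAB3A replicate 5; the cell cycle lists at the top lie to the right, and the neuron and mature oligodendrocyte lists to the left.

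Neuronal transcripts were the main group that fell. Of 22 genes of excitatory neurons and synapses 17 were lower and 0 higher (median -2.04), and of 15 genes of GABAergic interneurons 11 were lower (median -1.91). Rbfox3, the neuronal nuclear antigen NeuN, ran from 4.47 to 10.85 (median 8.25) in the high-score and from 10.41 to 11.94 (median 11.16) in the low-score tumours, a difference of -2.85 ± 0.54 (SE; adjusted p = 0.00133). The groups overlapped through 1 tumour, RAB3A replicate 5 with 10.85; the other 7 high-score tumours reached 9.05 at most. Nefl, the light neurofilament, differed by -3.04, Nefh, the heavy one, by -2.73, the calcium buffer Calb1 by -2.96 and the vesicular GABA transporter Slc32a1 by -2.79. Map2 (0.74, adjusted p = 0.0642) and Gria2 (-0.43, adjusted p = 0.157) were among the members not called, though 1 gene of the list was higher without BC74C replicate 1, BC74C replicate 3 or RAB3A replicate 2.

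RAB3A replicate 5 kept a neuronal level like that of the low-score tumours. The mean of the excitatory list was 9.06 there, whereas in the other 7 high-score tumours it ran from 5.33 to 7.44 (median 7.03) and in the low-score tumours from 7.95 to 9.81 (median 9.17). Without it the 2 groups of tumours did not overlap in this mean, and 19 of 22 genes were lower (median -2.31). In the GABAergic list the mean was 8.48 in RAB3A replicate 5, from 4.77 to 6.96 in the other 7 and from 7.31 to 8.90 in the low-score tumours; 12 of 15 genes were lower without it (median -2.51).

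The 12 genes with the most negative differences were led by Dlg2 and Vsnl1, and 1 of them, Gabrb2, belonged to a neuron list. Dlg2, a scaffold of the postsynaptic density, ran from 3.32 to 8.97 (median 5.01) in the high-score and from 8.17 to 9.28 (median 9.08) in the low-score tumours, a difference of -3.61 ± 0.58 (SE; adjusted p = 0.000511). The highest value of the high-score group was that of RAB3A replicate 5, and without it the difference was -4.28 (adjusted p = 5.01e-06) with separate groups. The calcium sensor Vsnl1 differed by -3.35, the Ras exchange factor Rasgrf2 by -3.26, the potassium channel subunits Dpp10 and Kcnip4 by -3.20 and -3.15, and the synaptic organiser Cbln4 by -3.20. The others were the sodium channel Scn1a (-3.19), the SNARE adaptor Napb (-3.18), Sphkap (-3.15), the calcium exchanger Slc24a2 (-3.14), the GABA receptor subunit Gabrb2 (-3.14) and the chloride exporter Slc12a5 (-3.11). Among the called genes named here another probe set had the opposite sign for Rasgrf2 (0.07), E2f8 (-0.06) and Slc32a1 (0.03). Others kept the sign with a far smaller difference, as for Dlg2 (-1.09 and -0.36), Bub1 (0.11), Mcm5 (0.20), Slc12a5 (-0.28), Slc24a2 (-0.33) and Slc35f4 (-0.02). Napb had 1 far smaller (-0.27) and 1 close to the brightest (-3.06). In some genes the other probe set was close to the brightest, as for Vsnl1 (-3.34) and Cks2 (3.25).

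Some genes lay lower in every high-score tumour, RAB3A replicate 5 included. Kcnt1, a sodium-activated potassium channel, ran from 5.0 to 7.07 (median 5.44) in the high-score and from 7.63 to 8.70 (median 8.34) in the low-score tumours, a difference of -2.43 ± 0.23 (SE; adjusted p = 6.23e-06). The groups did not overlap, and RAB3A replicate 5 was the nearest to the low-score tumours. Hrh3, the histamine H3 receptor (-2.0), the endosomal GTPase Rab4a (-1.37) and Ccdc32 (-0.80) were separated in the same way. Slc35f4 (-2.05) and the circadian transcription factor Tef (-1.03) completed the 6 genes in no list with the smallest p, and their groups overlapped. Of the mouse counterparts of the class genes, Rab3a was lower (-2.09, adjusted p = 0.000602), Zfp668 had a difference of -0.00147 (adjusted p = 0.996), and Bcl7c, named only as a candidate for BC74C, one of 0.51 (adjusted p = 0.0998). Rab3a, a gene of synaptic vesicles, read 9.34 in RAB3A replicate 5 and 8.20 at most in the other 7 high-score tumours. With the mean of the excitatory neuron list as a covariate in limma it differed by -0.505 (adjusted p = 0.559).

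**Figure D4:**
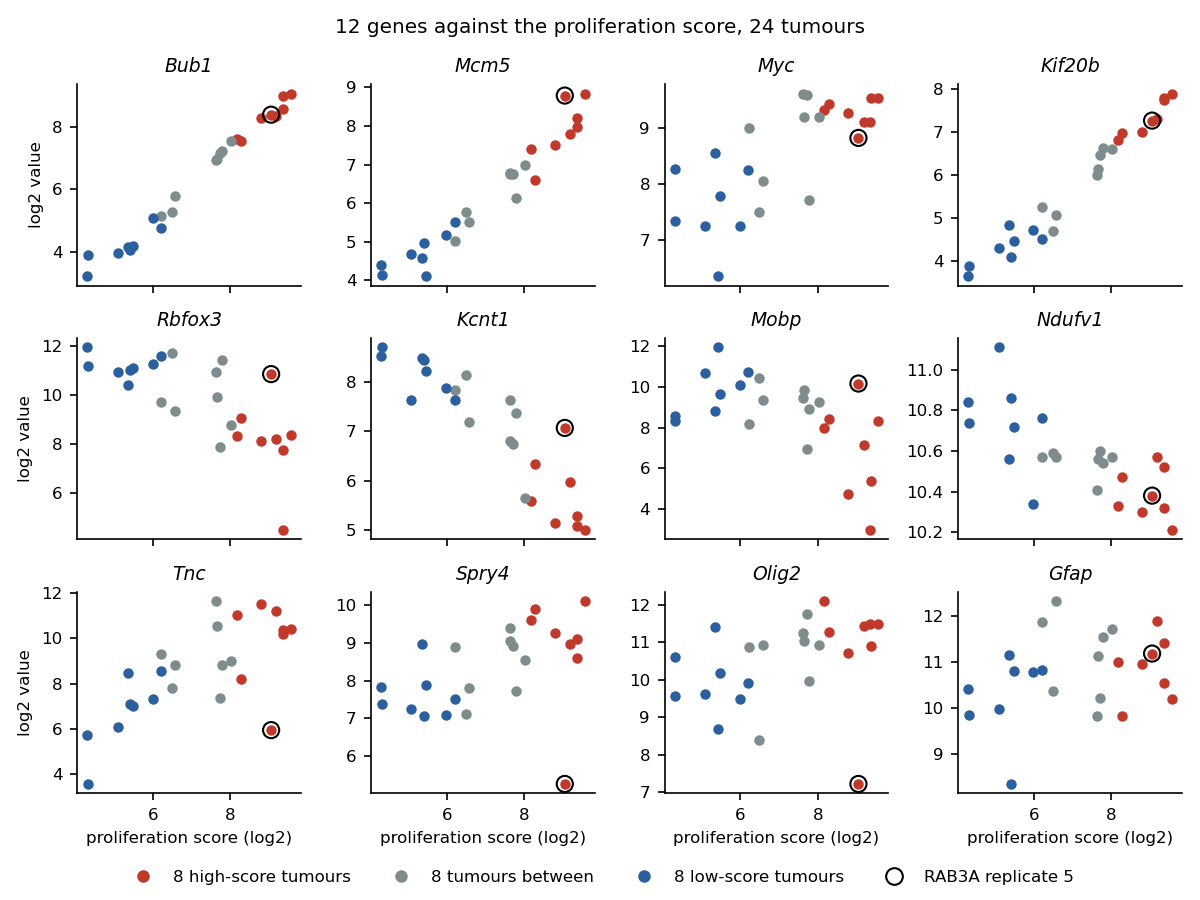
Log2 expression value (y axes) of 12 genes against the proliferation score (x axes) in 24 tumours, with RAB3A replicate 5 circled. Bub1, Mcm5 and Kif20b climb through all 24 tumours, Rbfox3 and Kcnt1 decline, and in Tnc, Spry4 and Olig2 the circled tumour lies far below the other high-score tumours.

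Myelin genes were lower too, with 7 of 13 called (median -1.71), but that count rested on single tumours. It was 1 without BC74C replicate 1, BC74C replicate 3 or ZNF668 replicate 9, 2 without BC74C replicate 6 or 8, and 8 without RAB3A replicate 5. Mobp, a structural protein of myelin, ran from 2.97 to 10.16 (median 7.57) in the high-score and from 8.33 to 11.93 (median 9.87) in the low-score tumours, a difference of -2.89 ± 0.91 (SE; adjusted p = 0.0242). The groups overlapped, and RAB3A replicate 5 had the highest value of the high-score tumours. Mobp was not called in 5 of the 16 fits without 1 tumour (highest adjusted p = 0.061). Mog, a glycoprotein of the myelin surface, had a difference of -2.26 (adjusted p = 0.0409) and was not called in 10 of them (highest adjusted p = 0.1). Within class genes Mog differed by 0.63 in RAB3A, -5.60 in BC74C and -2.33 in ZNF668 tumours, and limma's interaction test gave an adjusted p of 0.946 (unadjusted 0.0041). Cnp, a myelin enzyme, had a difference of -0.25 (adjusted p = 0.617).

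Radial glia genes leaned upward, and neuronal progenitor genes did not. Of 20 radial glia and neural stem genes 7 were higher and 0 lower (median 0.64), where 17.0% and 16.6% of all genes were called. Without RAB3A replicate 5 there were 10 higher (median 0.88), where 21.3% of all genes were. Tnc, the matrix protein tenascin C, ran from 5.94 to 11.51 (median 10.39) in the high-score and from 3.56 to 8.56 (median 7.05) in the low-score tumours, a difference of 2.79 ± 0.57 (SE; adjusted p = 0.00206). Its lowest high-score value was that of RAB3A replicate 5. The chromatin protein Hmga2 (2.13, adjusted p = 0.0126) and the Notch target Hes5 (1.72, adjusted p = 0.00484) were also higher. In the 8 tumours between, 5 of the 7 called genes rose with the score, while Hmga2 and Hes5 fell (slopes -0.624 and -0.675). In the neuronal progenitor list (median 0.05) 3 of 11 were lower, Stmn2 (-3.03) and Neurod1 (-1.57) among them, and 1 was higher, the Notch ligand Dll3 (1.43, adjusted p = 0.0397). With 1 tumour left out Dll3 was not called in 11 of the 16 fits (highest adjusted p = 0.0964). Without RAB3A replicate 5, where the count of higher genes was 4, it differed by 1.95 (adjusted p = 0.000905). In the 8 tumours between, Dll3 fell with the score (slope -0.566), while 3 of the 4 called genes of its list kept their sign.

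Several lists had more called genes when RAB3A replicate 5 was left out. In the list of MAPK feedback genes and ETV factors, which respond to growth factor signalling, 0 of 13 were called among all 16 tumours (median 0.53). Without RAB3A replicate 5 there were 7 higher (median 0.94), against 21.3% of all genes. In the fits without RAB3A replicate 4 or ZNF668 replicate 1 there was 1 higher. Spry4, a feedback inhibitor of receptor signalling, ran from 5.25 to 10.11 (median 9.19) in the high-score and from 7.07 to 8.97 (median 7.44) in the low-score tumours, a difference of 1.10 (adjusted p = 0.125). The 5.25 was that of RAB3A replicate 5, and without it the difference was 1.72 (adjusted p = 0.000671). Ccnd1 went from 1.05 (adjusted p = 0.0802) to 1.55 (adjusted p = 0.000795) in the same way. Since the tumour left out had the lowest high-score value of both genes, these changes are a description and test nothing.

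Oligodendrocyte progenitor genes followed that pattern. Among all 16 tumours 1 of 12 was higher, Nkx2-2 (0.99, adjusted p = 0.0431), where 17.0% of all genes were. Nkx2-2 was not called in 11 fits without 1 tumour. Without RAB3A replicate 5 there were 6 genes higher, where 21.3% of all genes were. Olig2 went from 0.75 (adjusted p = 0.305) to 1.37 (adjusted p = 0.00485) and Gpr17, a receptor of committed progenitors, from 2.03 (adjusted p = 0.115) to 2.72 (adjusted p = 0.0253). Olig1 (-0.49) and Sox10 (-0.38) were negative and not called. Egfr, among 15 growth factor receptor kinases of which 0 were called, went from 0.94 (adjusted p = 0.213) to 1.45 (adjusted p = 0.0245), with 1 receptor higher and 1 lower without that tumour, and 1 lower without BC74C replicate 1 or ZNF668 replicate 9. Sox11, of neuronal progenitors, went from 0.95 (adjusted p = 0.115) to 1.47 (adjusted p = 0.000773). For Olig2, Gpr17, Egfr and Sox11 the tumour left out had the lowest high-score value, so these changes are descriptions too.

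**Figure D5:**
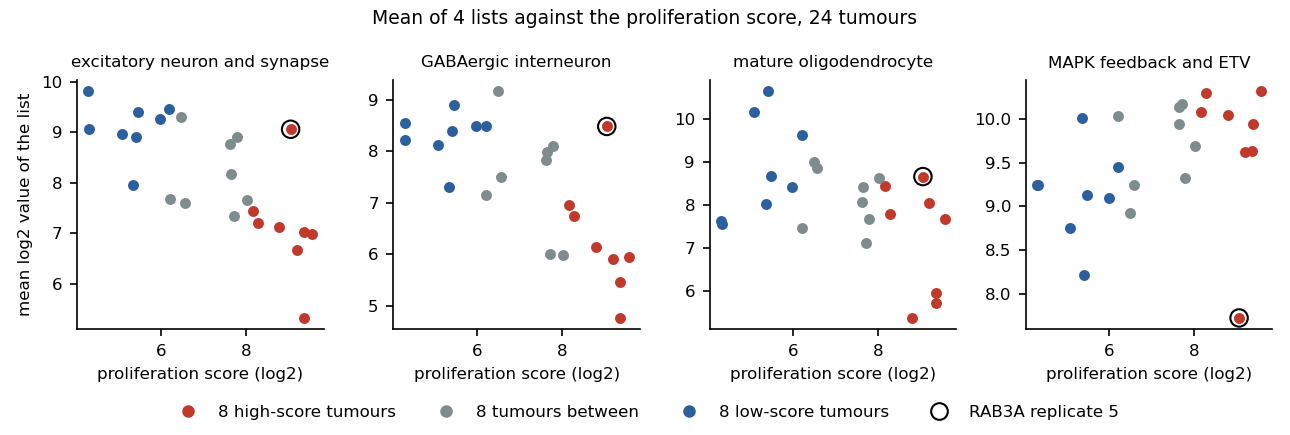
Mean log2 value of 4 gene lists (y axes) against the proliferation score (x axes) in 24 tumours, with RAB3A replicate 5 circled. In the excitatory neuron list the circled tumour has a mean of 9.06 against 7.44 at most in the other 7 high-score tumours, and in the MAPK feedback list it has the lowest mean of all, 7.72.

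In astrocytes, cilia, choroid plexus and immune cells few genes were called. Of 18 astrocyte genes 0 were called (median -0.24), with Sox9 at 0.96 (adjusted p = 0.157). Gfap, the astrocyte filament, was at 0.59 (adjusted p = 0.267) and Agt at -0.90 (adjusted p = 0.252). With ZNF668 replicate 9 left out, whose Sox9 and Gfap were the lowest of the low-score tumours, 2 were lower (median -0.57). The mean of the list was 7.95 in that tumour, against 9.49 or more in every other tumour. Of 17 genes of ependymal and motile cilia 0 were called (median -0.28), and 3 were lower without RAB3A replicate 5, among them the radial spoke gene Rsph4a (-0.91, adjusted p = 0.0159); without RAB3A replicate 2 there was 1. Choroid plexus genes had 0 of 11 called (1 higher without RAB3A replicate 5), and Ttr, transthyretin, had a difference of -1.23 ± 1.46 (SE). Of 18 microglia and macrophage genes 1 was higher, Lyz2 (1.34, adjusted p = 0.0392), a call that ended in 10 of the 16 fits without 1 tumour, RAB3A replicate 5 included (adjusted p = 0.0668); P2ry12, a receptor of resting microglia, had a difference of -0.41 (adjusted p = 0.408).

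Of 9 T and NK cell genes 0 were called, and 1 was lower without RAB3A replicate 5. Of 17 antigen presentation and interferon genes 1 was higher, the chemokine Cxcl9 (1.32, adjusted p = 0.0391). Its call ended in 10 of the 16 fits without 1 tumour, RAB3A replicate 5 included, while 5 genes of the list were higher without RAB3A replicate 3 and 2 without BC74C replicate 8, 0 being lower in any of the fits. In endothelium 2 of 16 were lower, Abcb1a (-1.46, adjusted p = 0.00593) and Mfsd2a (-1.23, adjusted p = 0.0315), both transporters of the blood-brain barrier. The count was 1 without any one of ZNF668 replicates 2, 5, 7 or 8 or RAB3A replicates 1 or 3. It was 3, Mfsd2a not among them (adjusted p = 0.0564), without RAB3A replicate 5. Mfsd2a was not called in 7 of the 16 fits without 1 tumour (highest adjusted p = 0.0763), and within BC74C tumours it differed by 0.20. Pericyte and fibroblast genes had 3 of 12 higher, where 17.0% of all genes were, led by the collagen Col3a1 (2.03, adjusted p = 0.0139). The other probe set of Col3a1 differed by 0.42. In the 8 tumours between, 0 of the 3 rose with the score. There were 2 higher without RAB3A replicate 5, where 21.3% of all genes were. Both red blood cell genes tested were lower, Hba-a1 (alpha globin, -1.34) and Alas2 (-1.16); Alas2 lost its call without BC74C replicate 3 or 6, RAB3A replicate 3 or ZNF668 replicate 1. Among p53 targets 2 of 14 were higher, Ccng1 (0.67, adjusted p = 0.022) among them, and 1 was lower, Perp (-1.07, adjusted p = 0.03). Of all genes 17.0% were higher and 16.6% lower. The counts of p53 targets and of endothelial genes in the main fit did not exceed those shares. Without RAB3A replicate 5 there were 3 p53 targets higher and 1 lower, against 21.3% and 18.1% of all genes. With 1 tumour left out the p53 targets had 0 higher (without ZNF668 replicate 9) to 4 higher (without RAB3A replicate 2) and 0 to 3 lower (without ZNF668 replicate 1). Of the 4 sex-linked transcripts 0 were called, with 3 higher without RAB3A replicate 5 and 1 lower without BC74C replicate 1. Among them Xist differed by -0.82 and Eif2s3y by 0.14. Uty and Kdm5d differed by 0.78 and 0.56, and by 1.39 and 1.36 (adjusted p = 0.0167 and 0.00996) without RAB3A replicate 5. Both were among the low values by which that tumour was set apart, so these p-values are descriptions.

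Proliferation and neuronal content could hardly be separated in these tumours. The mean of the excitatory neuron list together with the class gene accounted for 68.9% of the variance of the split into high and low score, and for 81.6% without RAB3A replicate 5. With that mean as a covariate limma called 198 genes higher (1.5%) and 27 lower (0.204%), and 79 of the 151 cell cycle genes were higher, all 79 of them among the 134. The median standard error rose from 0.19 to 0.32. The excitatory list itself cannot be read in this fit, since it makes up the covariate. The GABAergic list, which is no part of it, had 0 of 15 called and a median of -0.04, against -1.91 without the covariate.

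Those calls ended without RAB3A replicate 5, the 1 tumour with a high score and a high neuronal mean. No other tumour was left out of the covariate fit, so whether the loss is particular to this tumour was not tested. With the covariate and without RAB3A replicate 5 limma called 0 genes higher (0.0%) and 0 lower (smallest adjusted p = 0.148). An unadjusted p under 0.05 was found for 1194, and the median standard error was 0.42. The cell cycle lists kept positive medians in that fit, from 0.66 in the G1 list to 2.19 in the mitotic kinase list. Myelin genes had a median of 0.50 with the covariate and 0.40 with the covariate and without RAB3A replicate 5. Which of the differences described above go with proliferation and which with the share of neurons cannot be told apart from the other 15 tumours.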

How the data were processed

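Per the labels' protocols, Trizol-extracted RNA of each of 24 tumours from mouse cortex was labelled with biotin and hybridised to 1 single-colour Affymetrix array. The authors deposited 1 log2 value per probe set (45141) and tumour, made with Partek 6.6 per the submitters' processing notes; background correction, normalization and summarisation are not given in the sources used here. Array medians lay between 4.98 and 5.19, so a change shared by most genes would not be seen. The number of arrays limits the precision (median standard error 0.19).

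The members and the 29 gene lists were chosen with earlier results of these data known. Alternatives named as added were chosen after seeing the data. Each of 17097 genes was represented by its brightest probe set with a single symbol; genes under the 30th percentile (3.76) and the 5 score genes were left out. limma 3.58.1 in R 4.3.3 (lmFit, eBayes with an intensity trend, two-sided) gave log2 differences, adjusted by Benjamini-Hochberg over 13213 genes at a threshold of 0.05, and was checked on simulated data. Score differences between labels were tested by exact permutation. Genes named in the text come from the 12 largest and 12 smallest called differences outside the cell cycle lists, the 6 smallest p in each direction in no list, the 3 highest and 3 lowest of each list, and the class genes; predicted and clone names were passed over, and the B lymphocyte genes were added after their values had been seen. Gene names follow the platform annotation, updated through RefSeq GRCm38.p6. Promoters were matched by symbol for 10624 of the 13213 genes. Python 3.11.15 (pandas 2.3.3, matplotlib 3.10.9) served for summaries and plots.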

Additional observations from a re-analysis of the deposited data

Results flagged for a closer look

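Within each group of 8 tumours, the gap between the most extreme tumour and its neighbour was set against the range of the group (Dixon's criterion). It was exceeded in 32 of the 236 groups examined (the score and 117 genes in the high-score and the low-score tumours); chance flags about 1 in 20 groups, and genes measured on the same tumours are not independent.

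RAB3A replicate 5 was the extreme tumour in 19 of them. Among the high-score tumours it was the lowest for Mycn (9.41, next 13.31), Dll3 (4.84), Sox11 (6.84), Hmga2 (4.77), Olig2 (7.22), Sox9 (7.76), Uty (3.04), Kdm5d (2.89), Egfr (7.01), Spry4 (5.25), Ccnd1 (8.55) and Bcl7c (7.58). It was the highest for Ptprc (11.85), the neuronal genes Neurod1 (7.36), Dlg2 (8.97), Dpp10 (9.03) and Kcnip4 (9.08), the cilia gene Rsph4a (5.78) and Slc35f4 (4.94).

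Among the low-score tumours ZNF668 replicate 1 was the lowest for the neuronal genes Eno2 (9.15), Stmn2 (8.93), Vsnl1 (9.58), Dpp10 (6.90), Sphkap (8.32) and Slc12a5 (10.30), and the highest for Spry4 (8.97). ZNF668 replicate 9 was the lowest for the astrocyte genes Agt (7.54) and Gfap (8.34). BC74C replicate 8, the tumour next to the lower threshold, was the highest for Cxcl9 (6.39) and Depdc1a (4.57). RAB3A replicate 2 was the lowest low-score tumour for Ddx11 (3.90), and RAB3A replicate 3 the lowest high-score tumour for Stil (5.39).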

How the results depend on the processing

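The counts of called genes (2242 higher, 2197 lower) stayed within 1.5 times under all alternatives except 3. Within elw titles (6 highest against 6 lowest) they were 1444 and 1447, with fewer tumours. With the neuron list mean as a covariate they were 198 and 27, and, in a fit added after the data were seen, 0 and 0 with that covariate and without RAB3A replicate 5. The rule applied to the other 23 tumours, also added, gave 2955 and 2428, array weights 3171 and 2739, and the title prefix as a block 2681 and 2302. Leaving out 1 tumour gave 1709 to 2816 higher and 1815 to 2390 lower. Of 88 called genes named in the text 76 kept their call without any single tumour and 38 with the covariate. No paired analysis was possible because the replicate numbers follow the order of deposit and pair no tumours.

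Directions also turned. With the covariate these were Anln (0.429), Kif15 (0.04227), Trp53bp1 (0.198), Nefl (0.774), Gria2 (0.288), Stmn2 (0.24), Dll3 (-0.165), Sox11 (-0.835), Olig2 (-1.085), Sox10 (0.547), Mobp (0.753), Cnp (0.383), Sox9 (-0.2), Rsph4a (0.657), Ttr (3.818), P2ry12 (0.504), Uty (-1.128), Kdm5d (-1.844), Egfr (-0.635), Spry4 (-0.254), Ccnd1 (-0.028), Bcl7c (-0.15), Vsnl1 (0.374) and Slc12a5 (0.288). Without RAB3A replicate 5 as well they were Kif15 (0.332), Trp53bp1 (0.265), Nefl (0.778), Map2 (-0.181), Gria2 (0.978), Stmn2 (0.281), Hes5 (-0.252), Sox10 (0.982), Mobp (0.456), Cnp (0.486), Gfap (-0.07232), Ttr (1.788), P2ry12 (0.994), Zfp668 (0.167), Vsnl1 (0.514) and Slc12a5 (0.455). Within elw titles Kif15 (0.07043), Mycn (0.137), Sox10 (0.304), Cnp (0.243) and Zfp668 (0.07548) turned. Kif15 and Zfp668 also turned with the prefix block (0.01456 and 0.03597), quantile normalization (0.03991 and 0.07862) and the rule on 23 tumours (0.02015 and 0.02774, with Mycn at 0.153). Mycn was 0.255 over the mean of its probe sets. Zfp668 was 0.02301 without the class gene covariate, 0.09228 for 12 against 12, 0.01822 with centred arrays and 0.04654 with array weights. Under a score from licensing genes Zfp668 (0.01961), Olig1 (0.07552) and the score difference between BC74C and ZNF668 (-0.02, adjusted exact p = 0.96) turned. With 1 tumour left out Anln ran from -0.524 to 0.01593, Kif15 from -0.06627 to 0.004116, Mycn from -0.735 to 0.147, Olig1 from -0.769 to 0.0348 and Zfp668 from -0.07421 to 0.06373. Nefl, Gria2 and Map2 belong to the list that makes up the covariate, so their signs in the covariate fits cannot be read. The cause of the other turns was not tested.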
